A study of Homo sapiens with 18 samples.

Results

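Imprinted genes are transcribed mainly or wholly from the copy inherited from a particular parent, and 38 of them, grouped into 19 loci, were followed here among the 27130 gene symbols of the count tables. The members were chosen by symbol from a list of imprinted genes, with no expression value in the rule, and every symbol stood in the tables. Polyadenylated RNA had been sequenced from human embryonic stem cells in which ZNF263, a transcription factor gene of the zinc finger class, had been edited, in a study of its part in pluripotency. The replicated groups were clone 9-1 and clone 9-D of the line H9 (WA09), unedited H9, clone 1-10 of the line H1 (WA01) and unedited H1, with 3 libraries each. Clones 9-1, 9-D and 1-10 are labelled homozygous knockouts made with Cas9, and each is a single clone, so an effect of the knockout and a feature of the clone cannot be told apart within a clone. A further H1 set held a single library each of the heterozygous clone 1-5, of clone 1-10 and of wild type (WT). The labels give no batch or date and do not say whether replicates were separate cultures, so p-values measure the spread between these libraries, which may be technical.

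Library totals ran from 9663550 to 21007799 counts, so that a count of 0 allowed up to 0.143 CPM (counts scaled to a common library total) in the deepest library and 0.310 CPM in the shallowest, for counting error only. Levels are CPM scaled by the trimmed mean of M values (TMM) and are not divided by gene length, so they are compared between samples of a gene and not between genes. Differences are log2 fold changes with standard errors (SE) from edgeR's quasi-likelihood test, and a gene was called when its Benjamini-Hochberg adjusted p over all genes tested was under 0.05. ZNF263 itself averaged 35.9 ± 1.45 CPM in 9-1, 36.1 ± 1.39 CPM in 9-D and 42 ± 2.33 CPM in H9 WT, and 34.1 ± 1.74 CPM in 1-10 against 40.7 ± 1.13 CPM in H1 WT (SD, n = 3 each). Its log2 differences were -0.23, -0.23 and -0.27, with adjusted p of 0.0154, 0.0201 and 0.0152, so the transcript was still counted in the clones. The edited part of the gene is not given in the sources used here, and counts over the whole gene do not show whether a protein is made. Of 10 markers of pluripotent stem cells none was at 0 in any group. Their summed level was 10403 to 10588 CPM in 9-1, 10621 to 10780.1 CPM in 9-D and 9152 to 9565 CPM in H9 WT, and 11064 to 11520.5 CPM in 1-10 against 10176 to 10477 CPM in H1 WT.

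As background, the parental copy that is used is set by DNA methylation laid down in the germ line at imprinting control regions, and it is kept after fertilisation by factors such as ZFP57, ZNF445 and TRIM28. Imprinted genes often lie in clusters in which paternally and maternally expressed genes share a control region, so a gain or loss of methylation there moves several genes at once and often in opposite directions. Paternally expressed members are on the whole known to favour growth and maternally expressed members to restrain it. Lines of human pluripotent cells are known to differ from each other in the state of single imprinted loci. Read counts of a symbol add both parental copies, so nothing below measures from which copy a gene was read.

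Of the 38 members, 28 passed the filter on low counts in the H1 comparison, 28 in the H9 comparisons and 29 in the model of both lines. The zinc finger genes PEG3 and ZIM2 and the long noncoding RNA MEG8 had no count in any of the 18 libraries. MEG3, the long noncoding RNA of the maternal 14q32 copy, had 0 to 4 counts in each library. RTL1, a retrotransposon-derived gene of the same cluster, had 0 to 5 counts. The ubiquitin ligase gene MKRN3 had 0 to 3 counts, the noncoding RNA HYMAI 0 to 6 and the small GTPase gene DIRAS3 0 to 5. SNURF, which shares its transcript with SNRPN, had 0 to 12 counts. These 9 members were tested nowhere, because they did not pass the filter. For 6 of them ratios of summed counts could be formed, and their exact 95% counting intervals, which leave out the spread between libraries, held no change except for RTL1 in 9-1 against H9 WT (0 against 6 counts, ratio up to 0.785) and for HYMAI in 1-10 and in H9 WT against H1 WT (0 against 6 counts each, ratios up to 0.815 and 0.779). All 6 HYMAI counts of H1 WT came from replicate 1, and the RTL1 counts were 0, 0 and 0 in 9-1 and 4, 2 and 0 in H9 WT. In the GENCODE v29 annotation of GRCh38, 69.3% of the exon bases of SNURF and 33.6% of those of SNRPN lie within exons of other genes, so counts of these symbols depend on how shared reads were treated.

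Between 3 and 8 members were called in each clone, shares near those of all genes. In clone 9-1, 6 members were called higher and 2 lower than in H9 WT (28.6% of 28), beside 26.6% of all 15411 genes tested. In clone 9-D, 3 were called higher and 5 lower (28.6% of 28), beside 23.8% of all genes. In H1 clone 1-10, 1 was called higher and 2 lower (10.7% of 28), beside 12.7% of 14897 genes. The median log2 difference of the tested members was 0.07 in 9-1, 0.02 in 9-D and 0.04 in 1-10, and that of all genes lay between -0.01 and 0.00. Across the 3 clones, 13 of 29 members were called at least once (44.8%), beside 36.2% of all genes. DLK1 was lower and GNAS higher in all 3 clones, which is 2 of the 27 members tested in each (7.41%), beside 4.98% of all genes. Clones 9-1 and 9-D were compared with the same 3 WT libraries.

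**Figure D1:**
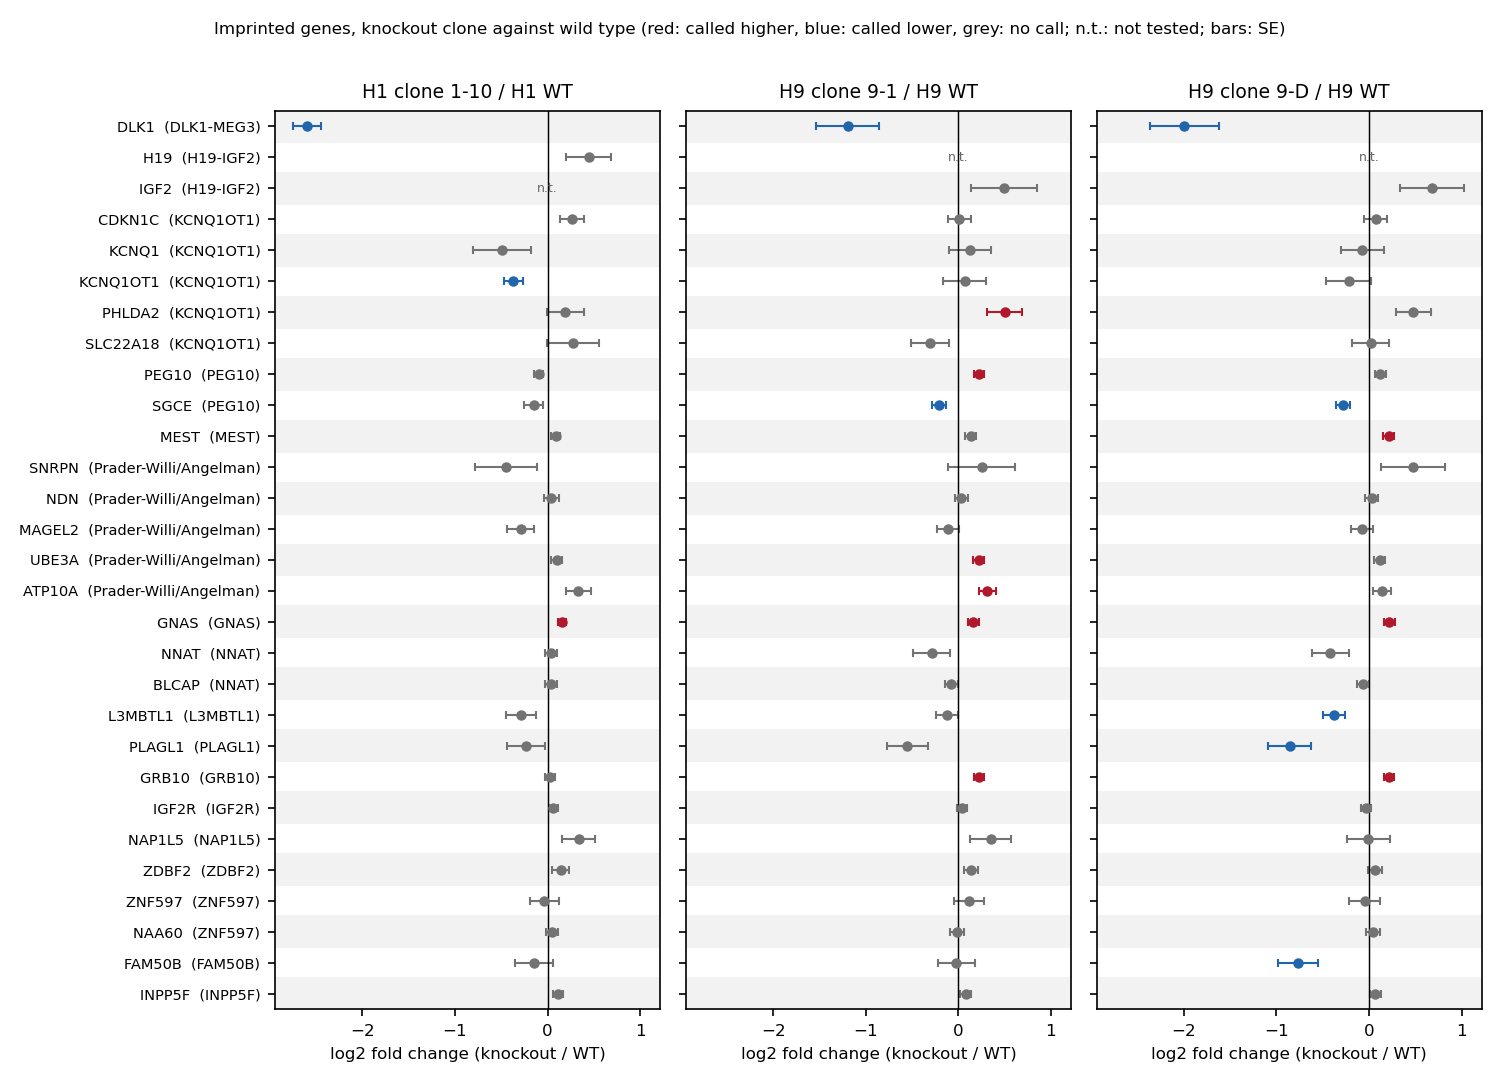
Log2 fold change of each tested imprinted gene in clones 1-10, 9-1 and 9-D against the wild type of their line, with bars of 1 SE and the locus in parentheses. DLK1 lies furthest to the left in every panel (-2.60, -1.19 and -1.996) and GNAS lies just to the right of 0.

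DLK1 encodes a transmembrane protein with EGF-like repeats that is related to the Notch ligands and holds back differentiation, in fat cell precursors among others. It was the member that fell most. Clone 9-1 had 1.18, 1.67 and 3.68 CPM and clone 9-D had 1.08, 1.63 and 1.03 CPM, against 7.25, 3.5 and 3.87 CPM in H9 WT. Clone 1-10 had 3.28, 3.68 and 5.66 CPM, against 19.6, 28.8 and 23.9 CPM in H1 WT. The groups of 9-D and of 1-10 did not overlap with their wild types, while the highest library of 9-1 lay just above the lowest of H9 WT. The log2 difference was -1.19 (SE 0.34, adjusted p = 0.0147) in 9-1, -1.996 (SE 0.37, adjusted p = 0.000708) in 9-D and -2.60 (SE 0.15, adjusted p = 3.77e-15) in 1-10. Between the H9 clones it was -0.80 (9-D over 9-1, SE 0.42, adjusted p = 0.772).

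The calls of DLK1 in 1-10 and 9-D were kept under every alternative run, with log2 differences from -2.81 to -2.44 in 1-10 and from -2.20 to -1.59 in 9-D. The call in 9-1 was lost with DESeq2 (adjusted p = 0.0754), without 9-1 replicate 2 (adjusted p = 0.0782) and in a fit of these groups alone (adjusted p = 0.0549). Without replicate 1 of H9 WT, its highest library, the difference of 9-1 was -0.79 (adjusted p = 0.0499). The difference between the effect in H9, averaged over both clones, and the effect in H1 was 0.99 (SE 0.50, adjusted p = 0.282), and it was 1.39 (adjusted p = 0.0188) without that library. In the single H1 libraries DLK1 had 5.95 CPM in the heterozygous clone 1-5, 6.77 CPM in clone 1-10 and 6.91 CPM in WT, from 78, 90 and 78 counts. The lower level of 1-10 was thus not seen in that set, whose WT library also lay under the 3 replicated H1 WT libraries, though the sets were scaled separately.

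The other members of the DLK1 cluster were counted too rarely for the test. MEG3 summed to 6 counts in 9-1, 4 in 9-D and 9 in H9 WT, and to 3 in 1-10 against 6 in H1 WT. The ratio of MEG3 to wild type had exact 95% counting intervals of 0.181 to 1.94 in 9-1, 0.0921 to 1.47 in 9-D and 0.0776 to 2.25 in 1-10, wide enough to hold both a large fall and no fall. RTL1 summed to 0 counts in 9-1, 5 in 9-D and 6 in H9 WT, and to 5 in 1-10 against 13 in H1 WT. Its counting interval reached up to 0.785 in 9-1, short of 1, and ran from 0.185 to 3.02 in 9-D and from 0.103 to 1.10 in 1-10. Among the 3 tested genes on either side of the cluster, BEGAIN, the nearest to DLK1 among them, was lower in 9-1 (-0.78, SE 0.23, adjusted p = 0.00836) and 9-D (-0.60, SE 0.22, adjusted p = 0.0459) and stood at -0.27 (SE 0.23, adjusted p = 0.488) in 1-10. WARS, a tRNA synthetase gene further out, was higher in 9-1 (0.36), 9-D (0.39) and 1-10 (0.19). WDR25 between them was higher in 9-1 (0.34) and 9-D (0.39) and stood at 0.01 in 1-10. PPP2R5C, DYNC1H1 and HSP90AA1 on the far side were not called in any clone.

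**Figure D2:**
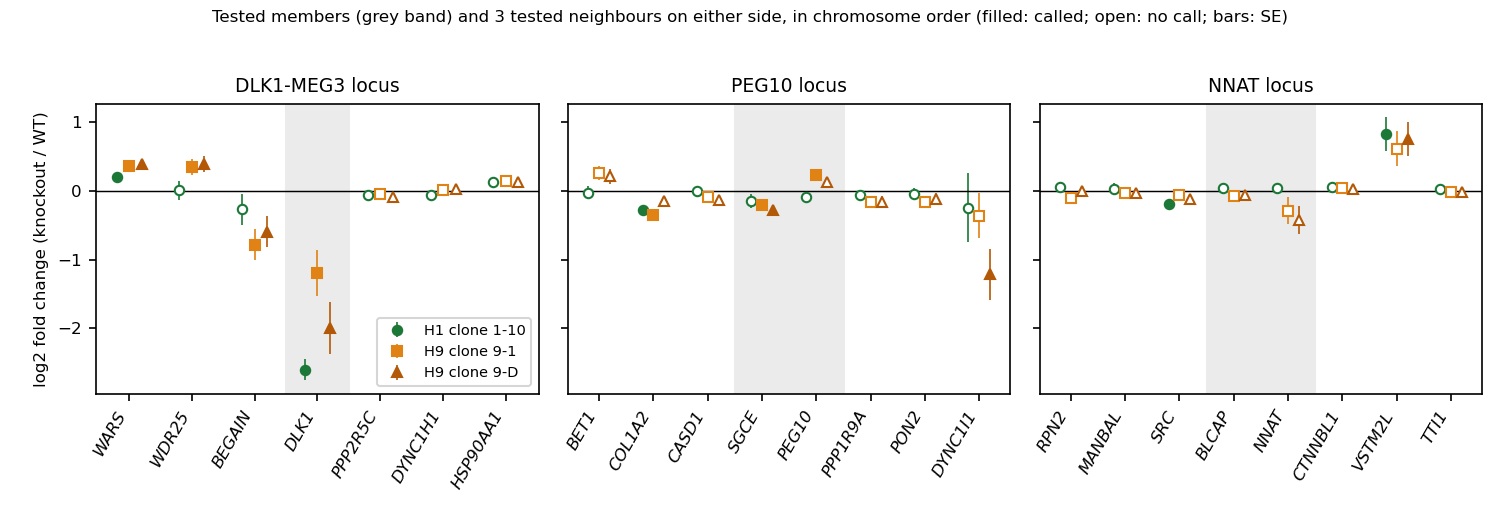
Log2 fold change (bars of 1 SE) of tested members, on a grey band, and of 3 tested neighbours on either side, in chromosome order, at the DLK1-MEG3, PEG10 and NNAT loci. Filled symbols were called and open ones were not. DLK1 stands under all its neighbours in every clone, and at the PEG10 locus SGCE lies under 0 in each clone.

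Some markers of other cell types were also lower in 1-10. Of all genes tested, 5.18% were called higher and 7.47% lower in 1-10, 12.9% and 13.7% in 9-1, and 11.6% and 12.1% in 9-D. The 6 markers of primitive streak and mesendoderm summed to 4.24 to 10.2 CPM in 1-10 against 23.3 to 25.2 CPM in H1 WT, and all 4 that were tested fell. In H9 they summed to 3.48 to 21.9 CPM in 9-1, 4.36 to 13.5 CPM in 9-D and 5.23 to 11.9 CPM in WT, where edgeR and DESeq2 called 0 of the 4 tested and 0 had an unadjusted p under 0.05. Of 7 neuroectoderm markers, 5 fell in 1-10 (median log2 difference -1.12, range -2.79 to 0.07). Their sums, which follow the most abundant markers, were 410 to 448 CPM in 1-10 and 414 to 429 CPM in H1 WT. Of the 3 tested in H9, edgeR and DESeq2 called 0, and 2 were lower in 9-D at an unadjusted p under 0.05. The 7 trophoblast and amnion markers found summed to 6.55 to 7.39 CPM in 1-10 against 10.8 to 12.9 CPM in H1 WT, with 1 of 2 tested lower. In H9 their sums were 11.3 to 13.5 CPM in 9-1 and 10.9 to 15.4 CPM in 9-D against 13.3 to 13.6 CPM in WT, with 1 of 5 tested higher and 1 lower in each clone. Of 7 endoderm markers, all 3 tested were higher in each H9 clone (medians 1.42 in 9-1 and 1.43 in 9-D), and 1 of 3 tested was lower in 1-10. Of 8 fibroblast markers, 4 of 6 tested fell in 1-10, 3 of 5 in 9-1 and 2 of 5 in 9-D, and 1 was higher in each H9 clone (0.54 in 9-1 and 0.65 in 9-D). Their sums were 589 to 709 CPM in 1-10 against 634 to 665 CPM in H1 WT, and 765 to 836 CPM in 9-1 and 861 to 941 CPM in 9-D against 855 to 899 CPM in H9 WT. None of the mesendoderm markers was at 0 throughout a group, whereas the fibroblast marker DCN was at 0 in 9-D and in H9 WT and LUM in 9-1. Their part in the lower DLK1 was not tested, and in bulk RNA fewer cells of a type and less RNA per cell cannot be told apart.

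GNAS encodes the stimulatory G protein alpha subunit, which couples hormone receptors to cyclic AMP, and its locus also makes transcripts from imprinted alternative promoters that are counted together under this symbol. It rose slightly in every clone. Levels were 1015, 1001 and 1035 CPM in 9-1 and 1021, 1018 and 1138 CPM in 9-D, against 899, 910 and 905 CPM in H9 WT. Clone 1-10 had 1250.0, 1316 and 1188 CPM, against 1073, 1181 and 1094 CPM in H1 WT. In neither line did the libraries of a clone overlap with those of its wild type. The log2 difference was 0.16 (SE 0.05, adjusted p = 0.0218) in 9-1, 0.22 (SE 0.05, adjusted p = 0.00204) in 9-D and 0.16 (SE 0.05, adjusted p = 0.0183) in 1-10. The call in 9-D was kept under all 13 alternatives. That in 9-1 was lost without 9-1 replicate 3 (adjusted p = 0.0891) or without replicate 1 or 3 of H9 WT (0.0625 and 0.0741), and that in 1-10 without 1-10 replicate 1 (0.0559) or replicate 1 or 3 of H1 WT (0.110 and 0.118). The single libraries had 1259.9 CPM in clone 1-5, 1251 CPM in clone 1-10 and 1201 CPM in WT.

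Among growth regulators, GRB10, an adaptor that damps signalling from the insulin and IGF receptors, rose in both H9 clones. It had 248, 251 and 249 CPM in 9-1 and 252, 241 and 254 CPM in 9-D, against 214, 204 and 220.3 CPM in H9 WT. The libraries of either clone lay above all 3 of H9 WT. The difference was 0.22 (SE 0.05, adjusted p = 0.00183) in 9-1 and 0.22 (SE 0.05, adjusted p = 0.00239) in 9-D, kept under every alternative run. In H1 it averaged 193 ± 6.39 CPM in 1-10 and 189 ± 6.16 CPM in WT (0.03, adjusted p = 0.808). The effect in H9 minus that in H1 was 0.19 (adjusted p = 0.0698), and that difference was called with DESeq2 (adjusted p = 0.0264). PHLDA2, a pleckstrin homology protein that restrains placental growth, stood at 0.50 in 9-1 (adjusted p = 0.0484) and 0.48 in 9-D (adjusted p = 0.0649). The value in 9-1 passed the threshold, but without replicate 2 of H9 WT it was 0.29 (adjusted p = 0.310). CDKN1C, a cyclin-dependent kinase inhibitor, and IGF2R, the receptor that clears IGF2, were not called in any clone.

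PLAGL1, a zinc finger transcription factor that can halt the cell cycle, fell in 9-D. Its levels were 2.74, 2.34 and 2.9 CPM in 9-1 and 2.89, 2.19 and 1.27 CPM in 9-D, against 4.24, 3.78 and 3.51 CPM in H9 WT. Every library of both clones lay under every library of H9 WT. The difference was -0.86 (SE 0.23, adjusted p = 0.00424) in 9-D and -0.55 (SE 0.22, adjusted p = 0.0608) in 9-1, which is short of the threshold. Without 9-D replicate 3, its lowest library, 9-D stood at -0.58 (adjusted p = 0.0654). In H1, 1-10 averaged 3.19 ± 0.412 CPM and WT 3.77 ± 0.553 CPM (-0.23, adjusted p = 0.505). FAM50B, an intronless copy of an X-linked gene, had 1.53, 2.19 and 2.66 CPM in 9-D and 3.7, 3.34 and 3.68 CPM in 9-1, against 3.59, 3.57 and 3.63 CPM in H9 WT. The 3 libraries of 9-D lay under all others of H9, with a difference of -0.77 from WT (SE 0.22, adjusted p = 0.00651), but 9-D and 9-1 were not called apart (-0.75, SE 0.22, adjusted p = 0.213). Without 9-D replicate 1 the difference from WT was -0.56 (adjusted p = 0.0778). Between 9-D and 9-1 edgeR and DESeq2 called 0 of the 28 members, beside 0.324% of all genes by edgeR, and 2 were lower in 9-D at an unadjusted p under 0.05.

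**Figure D3:**
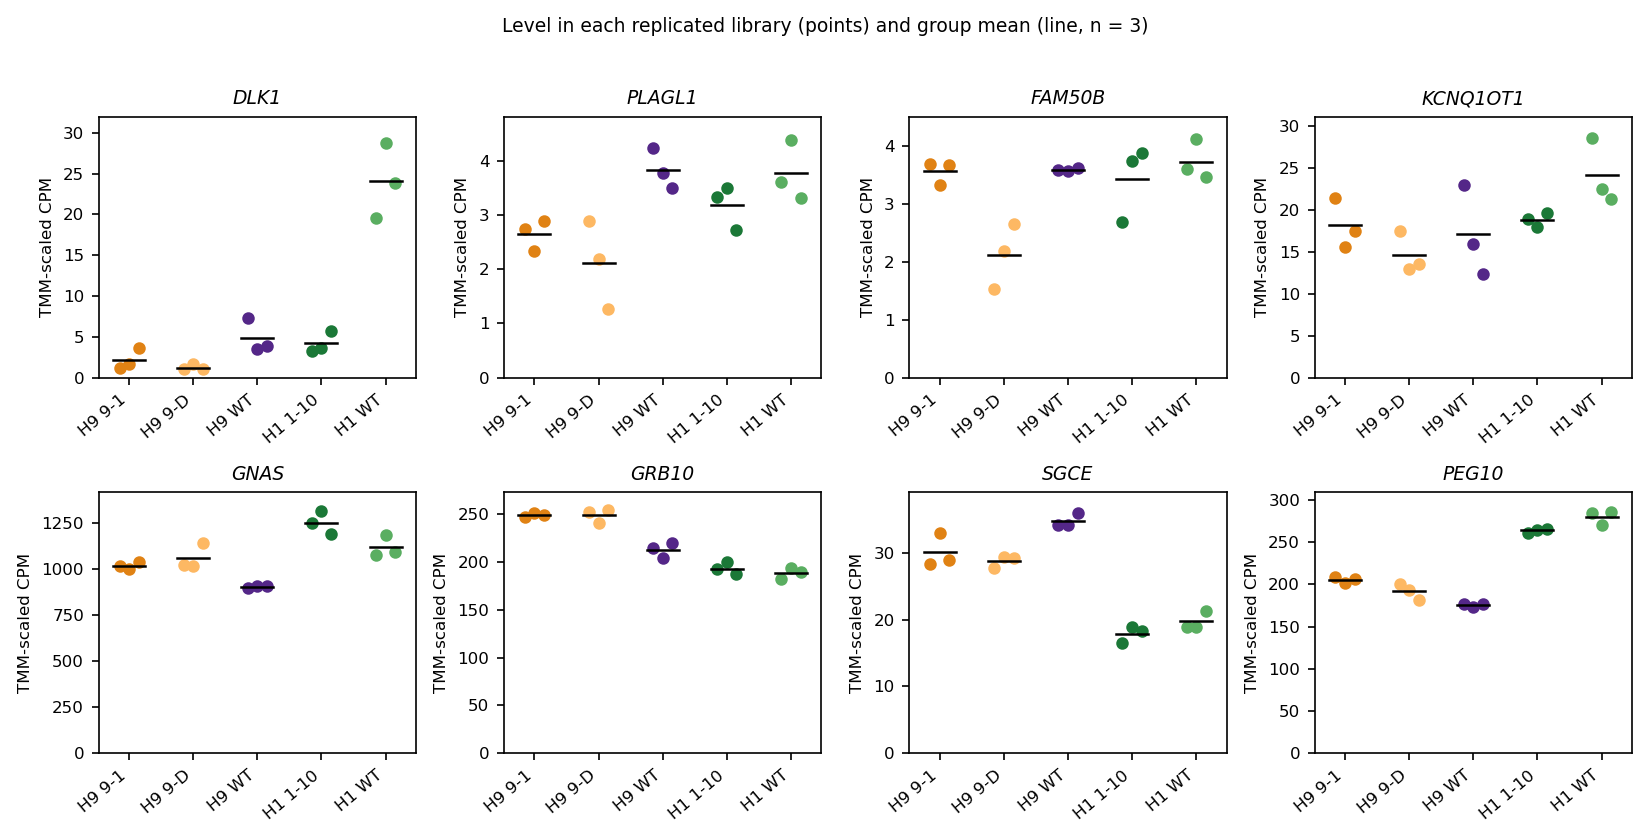
TMM-scaled CPM of 8 imprinted genes in each of the 15 replicated libraries (points) with group means (lines, n = 3), each panel from 0. DLK1 is lower in each clone than in its wild type, GNAS is higher, and GRB10 averages 249 CPM in either H9 clone and 213 CPM in H9 WT.

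The promoter windows of GRB10 and GNAS, higher in both H9 clones, and of PLAGL1 and FAM50B, lower in 9-D, are shown because a GGAGGA repeat is the core of the motif known for ZNF263. The windows are RefSeq sequences of GRCh38.p14, from 250 bases before to 50 bases after the annotated start, and capitals mark GGAGGA or its reverse complement TCCTCC.
GRB10, chr7:50793404-50793703, minus strand: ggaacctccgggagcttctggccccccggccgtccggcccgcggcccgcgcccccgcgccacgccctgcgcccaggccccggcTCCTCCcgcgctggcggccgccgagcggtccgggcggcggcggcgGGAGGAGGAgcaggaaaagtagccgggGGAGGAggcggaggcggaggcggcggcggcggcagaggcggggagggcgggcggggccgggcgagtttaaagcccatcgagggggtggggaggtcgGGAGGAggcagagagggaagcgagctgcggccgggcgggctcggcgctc
PLAGL1, chr6:144064550-144064849, minus strand: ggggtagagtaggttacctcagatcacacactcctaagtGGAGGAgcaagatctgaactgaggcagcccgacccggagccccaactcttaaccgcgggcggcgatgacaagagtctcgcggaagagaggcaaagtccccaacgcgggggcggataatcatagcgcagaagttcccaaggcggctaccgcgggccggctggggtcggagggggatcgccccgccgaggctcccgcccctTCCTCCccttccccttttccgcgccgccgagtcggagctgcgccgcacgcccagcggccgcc
FAM50B, chr6:3849123-3849422, plus strand: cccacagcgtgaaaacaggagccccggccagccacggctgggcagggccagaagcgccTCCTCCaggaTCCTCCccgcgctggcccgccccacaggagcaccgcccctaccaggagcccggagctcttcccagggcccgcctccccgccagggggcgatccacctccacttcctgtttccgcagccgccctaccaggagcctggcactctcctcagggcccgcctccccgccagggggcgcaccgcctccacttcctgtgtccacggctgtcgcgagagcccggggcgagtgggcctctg
GNAS, chr20:58888163-58888462, plus strand: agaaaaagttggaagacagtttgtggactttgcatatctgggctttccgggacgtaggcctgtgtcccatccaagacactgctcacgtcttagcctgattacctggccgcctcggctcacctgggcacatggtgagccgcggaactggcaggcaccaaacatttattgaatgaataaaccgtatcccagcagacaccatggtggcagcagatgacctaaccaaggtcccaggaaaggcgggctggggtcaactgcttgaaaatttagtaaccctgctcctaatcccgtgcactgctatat
The GRB10 window held 5 matches, with overlapping ones counted separately, and 0.813% of the 27305 windows in the table held as many. It also held 44 CpG, a number that 4.09% of windows reached. The windows of PLAGL1 and FAM50B held 2 matches each, as many as 11.1% of windows, and the window of GNAS, taken at a single annotated start of several, held 0. Of the 25 members with a window in the table, 14 (56%) held at least 1 match, against 36.1% of all windows. The member windows were also richer in CpG, with a median of 21 against 14 for all windows. DLK1 and NNAT had no window there, so their promoters were not examined. GRB10 and GNAS, with 5 and 0 matches, were both higher in the H9 clones, and PLAGL1 and FAM50B, with 2 each, were lower in 9-D. Among other called members with a window, L3MBTL1 (0 matches) was lower in 9-D and MEST (0 matches) was higher there. ATP10A (0 matches) and UBE3A (1 match) were higher in 9-1. A match describes the letters only, and binding was not analysed here.

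At 7q21, PEG10 and SGCE are paternally expressed neighbours read in opposite directions from a shared control region, and they moved in opposite directions in H9. PEG10, a retrotransposon-derived gene with a gag-like protein, rose in 9-1, with 208, 202 and 207 CPM in 9-1 and 201, 193 and 182 CPM in 9-D, against 177, 173 and 177 CPM in H9 WT. The difference was 0.22 (SE 0.06, adjusted p = 0.00227) in 9-1 and 0.12 (SE 0.06, adjusted p = 0.112) in 9-D. In H1, 1-10 had 261, 265 and 266 CPM, against 285, 271 and 286 CPM in WT, all below the wild type but short of the threshold (-0.10, SE 0.05, adjusted p = 0.195). SGCE, which encodes epsilon-sarcoglycan of the muscle membrane complex, fell in 9-1 (-0.21, SE 0.08, adjusted p = 0.0461) and 9-D (-0.28, SE 0.08, adjusted p = 0.00664) and stood at -0.15 (adjusted p = 0.347) in 1-10. Its means were 30.1 ± 2.56 CPM in 9-1, 28.8 ± 0.953 CPM in 9-D and 34.8 ± 0.979 CPM in H9 WT. The SGCE call in 9-1 was lost under 8 of 13 alternatives, with adjusted p up to 0.207, and that in 9-D under none. Of the 6 tested neighbours, COL1A2 was lower in 9-1 (-0.36) and 1-10 (-0.28) and DYNC1I1 in 9-D (-1.21, SE 0.37, adjusted p = 0.0123). COL1A2 is also in the list of fibroblast markers.

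The 11p15 loci showed no joint movement. KCNQ1OT1 is the long antisense RNA that silences its neighbours on the paternal copy, and CDKN1C, KCNQ1, PHLDA2 and SLC22A18 are maternally expressed genes of its cluster. KCNQ1OT1 had 18.9, 18 and 19.6 CPM in 1-10, against 28.6, 22.5 and 21.4 CPM in H1 WT, with no overlap between the groups. Its difference of -0.37 (SE 0.10, adjusted p = 0.0132) became -0.24 (adjusted p = 0.181) without replicate 1 of H1 WT, and the call was also lost without 1-10 replicate 1 (adjusted p = 0.0528) and in the model of both lines (adjusted p = 0.276). In H9 it stood at 0.07 in 9-1 and -0.22 in 9-D, not called. The neighbours it is known to silence stood in 1-10 at 0.27 (CDKN1C), -0.49 (KCNQ1), 0.19 (PHLDA2) and 0.27 (SLC22A18), with adjusted p from 0.191 to 0.588. KCNQ1 lies over KCNQ1OT1 on the other strand, and the labels name no strand-marking kit, so reads where their exons overlap cannot be told apart.

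At the H19-IGF2 locus, H19, a noncoding RNA of the maternal copy, had 4, 11 and 6 counts in 9-1 and 6, 2 and 3 in 9-D, against 1, 1 and 3 counts in H9 WT, too few to pass the filter. The ratio of summed counts to H9 WT was 3.88 in 9-1 (exact 95% counting interval 1.42 to 13.2) and 2.03 in 9-D (0.649 to 7.44), and these intervals leave out the spread between libraries. In H1, H19 averaged 2.83 ± 0.685 CPM in 1-10 and 2.14 ± 0.257 CPM in WT (0.44, SE 0.24, adjusted p = 0.244). IGF2, the fetal insulin-like growth factor, averaged 1.14 ± 0.284 CPM in 9-1, 1.34 ± 0.212 CPM in 9-D and 0.831 ± 0.351 CPM in H9 WT, with no call (0.49 and 0.68, adjusted p = 0.333 and 0.160). In H1 it summed to 2 counts in 1-10 and 1 count in WT. Nearby, DUSP8, a phosphatase of MAP kinases, was higher in 9-1 (0.72), 9-D (0.76) and 1-10 (0.74), and CTSD, the lysosomal protease cathepsin D, was higher by 0.22, 0.21 and 0.17.

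In the Prader-Willi and Angelman region of 15q11, UBE3A, a ubiquitin ligase read from the maternal copy in neurons, rose in 9-1, with 132, 129.9 and 126 CPM in 9-1 and 127, 119.9 and 113 CPM in 9-D, against 107, 113 and 112 CPM in H9 WT. The difference was 0.22 (SE 0.06, adjusted p = 0.00419) in 9-1, kept under all 13 alternatives, and 0.11 (adjusted p = 0.171) in 9-D. ATP10A, a phospholipid flippase gene next to it, was higher in 9-1 (0.31, SE 0.10, adjusted p = 0.0106), a call lost under 3 alternatives (adjusted p up to 0.0906), and stood at 0.14 in 9-D and 0.33 in 1-10. The paternally expressed genes did not follow. NDN, a MAGE family gene, averaged 39.8 ± 0.92 CPM in 9-1, 39.5 ± 3.18 CPM in 9-D and 38.7 ± 0.407 CPM in H9 WT, and 39.6 ± 2.64 CPM in 1-10 and 38.4 ± 1.73 CPM in H1 WT. MAGEL2, of the same family, lay between -0.29 and -0.08 in the 3 clones, and SNRPN, a splicing protein gene at 0.74 to 1.87 CPM per library, between -0.45 and 0.47, none called. On the flanks, GABRA5 (-0.35, -0.34 and -0.44 in 9-1, 9-D and 1-10) and HERC2 (-0.29, -0.34 and -0.24), a receptor subunit and a ubiquitin ligase gene, were lower in all 3 clones.

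Of the remaining members, MEST, a hydrolase family gene, was higher in 9-D (0.21, SE 0.06, adjusted p = 0.00813) and L3MBTL1, a chromatin-binding protein gene, lower in 9-D (-0.38, SE 0.12, adjusted p = 0.0173). Each of these calls was lost under 2 of 13 alternatives, both of which left out a library. In GENCODE v29, 27.4% of the exon bases of MEST lie opposite exons of other genes. NNAT, neuronatin, stood at -0.29 in 9-1, -0.42 in 9-D (adjusted p = 0.133) and 0.03 in 1-10. BLCAP, in whose intron NNAT lies, stood at -0.07, -0.07 and 0.04. NAP1L5, a relative of nucleosome assembly proteins, the zinc finger genes ZDBF2 and ZNF597, the acetyltransferase gene NAA60 and the phosphoinositide phosphatase gene INPP5F were not called in any clone, with log2 differences from -0.05 to 0.35.

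By the parental copy from which textbook knowledge has them expressed, 15 of 22 paternal members were tested in H9, and 1 was higher and 2 lower in 9-1, and 1 higher and 5 lower in 9-D. In 1-10, 14 were tested and 2 were lower. Of 9 maternal members, 6 were tested in H9 with 1 higher in 9-1. In 9-D (6 tested) and 1-10 (7 tested) edgeR and DESeq2 called 0 of the maternal members, and 1 in each was higher at an unadjusted p under 0.05. Of 7 members whose imprint depends on isoform or tissue, 4 were higher in 9-1, 2 in 9-D and 1 in 1-10, with none lower. The shares called of all genes were 12.9% higher and 13.7% lower in 9-1, 11.6% and 12.1% in 9-D, and 5.18% and 7.47% in 1-10. The flanks of the 19 loci held 110 distinct tested neighbours, of which 18 were higher and 13 lower in 9-1 (28.2%), 16 and 10 in 9-D (23.6%), and 8 and 9 in 1-10 (15.5%), each near the share of all genes. No locus with more than 1 tested member had all of them called in the same direction in any clone.

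The effect in H9, averaged over both clones, differed from that in H1 for 1 of 29 members, beside 9.3% of all 15802 genes (5.21% higher and 4.08% lower). That member was PEG10, whose difference of effects was 0.27 (SE 0.07, adjusted p = 0.00657). The authors' deposited comparison tables, in which both H9 clones were set together against H9 WT, called the same 3 members in H1, DLK1 (-2.57), KCNQ1OT1 (-0.36) and GNAS (0.17). For H9 the authors' deposited table called GRB10 (0.22), GNAS (0.20), PEG10 (0.18), MEST (0.18), UBE3A (0.17) and PHLDA2 (0.50) higher and DLK1 (-1.52), PLAGL1 (-0.69) and SGCE (-0.24) lower. In the single H1 libraries, none of 28 members with at least 1 CPM in either library differed by 2-fold in clone 1-5 or in clone 1-10 from WT after 0.5 CPM was added to each value, beside 0.935% and 0.911% of all genes at that level. Without that addition KCNQ1 would pass the limit in clone 1-10, with 0.978 CPM (13 counts) in clone 1-10 and 2.30 CPM (26 counts) in WT. Those libraries have no replicate, so no test was made on them.

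More of these genes differed between the unedited lines than between any clone and its wild type. Between H9 WT and H1 WT, 11 members were called higher in H9 and 8 lower (65.5% of 29), beside 52.7% of all genes. The labels do not say whether the libraries of the lines were made together, so line and batch cannot be told apart. The largest differences were at NNAT, H19, IGF2 and DLK1, and for each of them the values in the knockout clones stayed near those of their own line rather than of the other line, except that DLK1 of clone 1-10 overlapped the range of H9 WT.

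**Figure D4:**
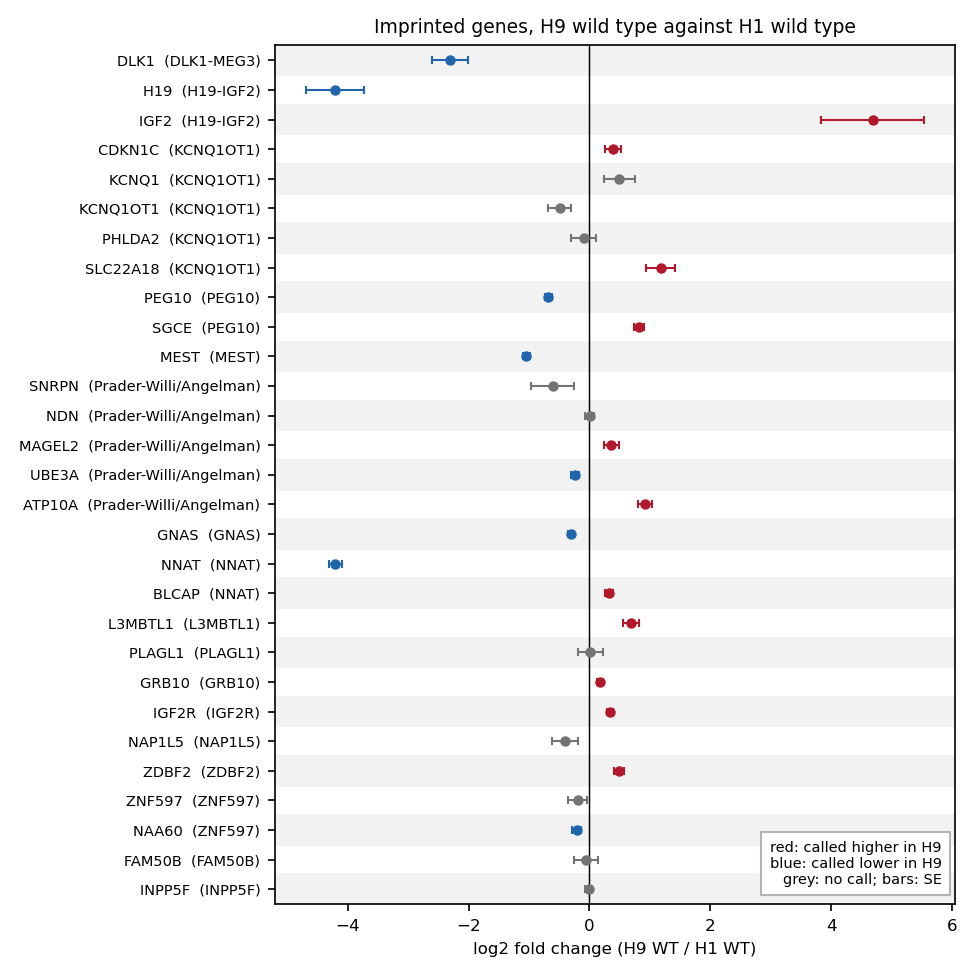
Log2 fold change of each tested imprinted gene in H9 WT over H1 WT, with bars of 1 SE and the locus in parentheses. NNAT and H19 (both -4.21), DLK1 (-2.31) and MEST (-1.04) lie to the left, and IGF2 (4.69) and SLC22A18 (1.18) to the right.

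NNAT, a small membrane proteolipid of developing brain and endocrine cells, had 3.66, 4.47 and 3.32 CPM in H9 WT, against 66.9, 74 and 69.3 CPM in H1 WT. The lines did not overlap in any library, and the difference was -4.21 (SE 0.11, adjusted p = 1.14e-34). Clones kept the level of their line, with 2.81, 2.76 and 3.89 CPM in 9-1, 2.77, 2.9 and 2.91 CPM in 9-D and 68.8, 76.4 and 71.3 CPM in 1-10. BLCAP, its host gene, went the other way, with 70.4 ± 1.97 CPM in H9 WT and 56.3 ± 3.28 CPM in H1 WT (0.32, SE 0.07, adjusted p = 6.47e-05). The neuroectoderm markers were also lower in H9 WT for 6 of 7 genes, beside 25.6% of all genes, with a median of -2.40. Their sums, which follow the most abundant markers, were 359 to 393 CPM in H9 WT and 414 to 429 CPM in H1 WT. The part of these markers in the lower NNAT was not tested. In 1-10 NNAT stood at 0.03 (SE 0.06, adjusted p = 0.802).

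The reciprocal pair at 11p15 was split between the lines. H19 had 1, 1 and 3 counts in H9 WT, against 27, 29 and 33 counts in H1 WT, that is 0.106 ± 0.0682 CPM and 2.14 ± 0.257 CPM. Its difference was -4.21 (SE 0.48, adjusted p = 2.82e-10), and the ratio of summed counts was 0.0515 with an exact 95% counting interval of 0.0163 to 0.125. IGF2 had 10, 18 and 10 counts in H9 WT, against 0, 1 and 0 counts in H1 WT. The fitted difference was 4.69 (SE 0.85, adjusted p = 8.44e-06), a value that depends on the prior count and ran from 4.24 to 6.65 over the alternatives, the highest without replicate 2 of H1 WT, which held the only count of that group. The ratio of sums over the 3 libraries of each line was 34.9 with an interval of 5.89 to 1413. INS-IGF2, a readthrough symbol that covers part of the IGF2 exons, had no count. Both genes were at low levels, with H9 highest for IGF2 and H1 for H19, and the same held in the clones, where IGF2 reached at most 0.21 CPM in 1-10 and H19 at most 0.524 CPM in the H9 clones. SLC22A18, a transporter gene of the adjoining cluster, was higher in H9 WT (1.18, SE 0.24, adjusted p = 5.45e-05), at 4.15 ± 0.666 CPM in H9 WT and 1.85 ± 0.431 CPM in H1 WT.

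**Figure D5:**
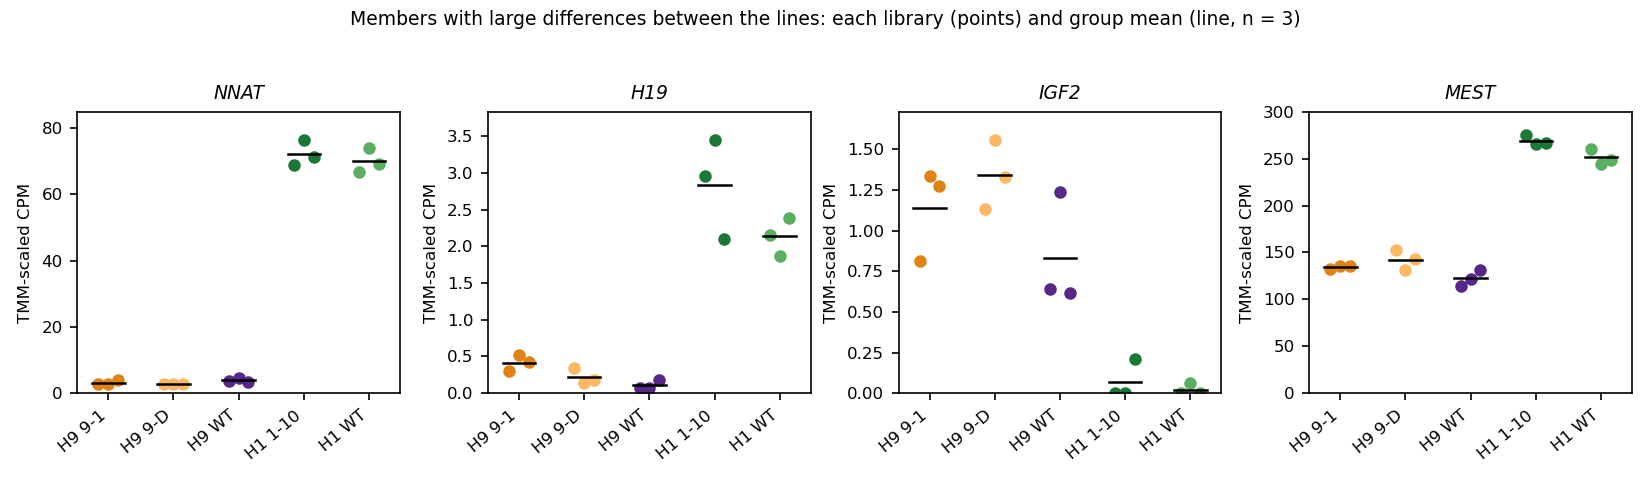
TMM-scaled CPM of NNAT, H19, IGF2 and MEST in each of the 15 replicated libraries (points) with group means (lines, n = 3), each panel from 0. NNAT, H19 and MEST are high in both H1 groups and low in all H9 groups, and IGF2 the reverse.

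DLK1 averaged 4.88 ± 2.07 CPM in H9 WT and 24.1 ± 4.59 CPM in H1 WT, a difference of -2.31 (SE 0.29, adjusted p = 2.52e-05). The H1 knockout clone 1-10, at 4.21 ± 1.27 CPM, lay at the level of H9 WT. MEST averaged 122 ± 8.5 CPM in H9 WT and 251 ± 8.18 CPM in H1 WT (-1.04, SE 0.06, adjusted p = 8.26e-21). The neighbours PEG10 and SGCE again went opposite ways, PEG10 at 176 ± 2.31 CPM in H9 WT and 281 ± 8.63 CPM in H1 WT (-0.68, SE 0.05) and SGCE at 34.8 ± 0.979 CPM in H9 WT and 19.8 ± 1.4 CPM in H1 WT (0.81, SE 0.09). Their adjusted p were 1.42e-15 and 2.64e-11. All 6 tested neighbours of that pair were called as well, 5 higher and 1 lower in H9 WT.

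Smaller differences ran in both directions. ATP10A (0.93), L3MBTL1 (0.69), ZDBF2 (0.49), CDKN1C (0.39), MAGEL2 (0.36), IGF2R (0.34) and GRB10 (0.17) were higher in H9 WT, and GNAS (-0.31), UBE3A (-0.24) and NAA60 (-0.21) lower. Of these calls, those of CDKN1C, MAGEL2 and NAA60 were each lost when a library was left out. Without replicate 1 of H9 WT, CDKN1C stood at 0.23 (adjusted p = 0.179), without replicate 1 of H1 WT MAGEL2 stood at 0.25 (adjusted p = 0.146), and without replicate 2 of H9 WT NAA60 stood at -0.10 (adjusted p = 0.253). KCNQ1OT1 was at the threshold, with -0.50 (adjusted p = 0.0505), and called lower in H9 WT under 7 of 12 alternatives. NDN, INPP5F, PLAGL1, FAM50B, PHLDA2, ZNF597, NAP1L5, KCNQ1 and SNRPN were not called, and the first 4 of these stood at 0.01, -0.01, 0.01 and -0.06. Of the 110 neighbours, 34 were higher and 29 lower in H9 WT (57.3%).

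Factors that set or keep imprints were followed as a list of 29 genes, all in the tables. Between the wild types, 4 of 27 tested were higher and 16 lower in H9 WT (74.1%, beside 52.7% of all genes). In 9-1, 10 of 26 tested were higher and 2 lower (46.2%, beside 26.6% of all genes), in 9-D 6 higher and 3 lower (34.6%, beside 23.8%), and in 1-10 3 of 24 higher and 2 lower (20.8%, beside 12.7%). DPPA3, which protects maternal methylation in the mouse zygote, averaged 2.46 ± 0.33 CPM in 9-1, 1.79 ± 0.163 CPM in 9-D and 0.472 ± 0.0732 CPM in H9 WT (2.33, SE 0.33, adjusted p = 2.2e-07, and 1.89, SE 0.34, adjusted p = 3.36e-05). In H1 it averaged 2.25 ± 0.403 CPM in 1-10 and 2.14 ± 0.712 CPM in WT. DNMT3L, a cofactor of de novo methylation, rose in 9-1 (1.31) and 9-D (1.499), and NLRP7, mutated in women with recurrent hydatidiform moles, rose by 1.48 and 1.57. DNMT3L and NLRP7 were too low in H1 to be tested there, at 0 to 6 and 0 to 4 counts per library. DNMT3B, a de novo methyltransferase, was higher in 9-1 (0.42), 9-D (0.41) and 1-10 (0.21), and UHRF1, which guides DNMT1 to new strands, was lower (-0.17, -0.30 and -0.18). ZFP57 (0.34, 0.21 and 0.19) and TRIM28 (0.13, 0.14 and 0.00) were not called in 9-1, 9-D or 1-10, while ZNF445 was lower in 9-D (-0.27, adjusted p = 0.00306). DNMT3B and ZFP42 of this list are also pluripotency markers, 7 of 10 of which were called higher in each H9 clone and 1 lower in 9-1, beside 12.9% of all genes higher in 9-1 and 11.6% in 9-D. Markers of endoderm were higher too, with 3 of 3 tested in each H9 clone and sums of 7.11 to 10.6 CPM in 9-1 and 5.58 to 10.3 CPM in 9-D, against 3.57 to 4.62 CPM in H9 WT.

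Of 61 other imprinted genes in the tables, 33 were tested in H9 and 30 in H1. In 9-1, 5 were higher and 4 lower (27.3%, beside 26.6% of all genes). In 9-D, 2 were higher and 2 lower (12.1%, beside 23.8%). In 1-10, 3 were lower (10%, beside 12.7%) and 0 higher by edgeR or DESeq2, with 2 higher at an unadjusted p under 0.05. SMOC1, which encodes a secreted matrix protein that binds calcium, averaged 1.93 ± 0.483 CPM in 9-1, 2.16 ± 0.289 CPM in 9-D and 4.05 ± 0.56 CPM in H9 WT, and 4.62 ± 1.27 CPM in 1-10 against 15.3 ± 0.46 CPM in H1 WT. Its log2 differences were -1.08 (adjusted p = 0.000214), -0.91 (adjusted p = 0.00151) and -1.79 (adjusted p = 9.64e-12), and the effects in H9 and H1 differed by 0.79 (adjusted p = 0.0241). OSBPL5, a lipid transfer protein gene beside the KCNQ1OT1 cluster, was lower in 9-1 (-0.41), 9-D (-0.35) and 1-10 (-0.73). Thus DLK1, SMOC1 and OSBPL5 were the imprinted genes of either list lower in all 3 clones. They came from 27 members tested in each clone and 30 other imprinted genes tested in 1-10. Of all 14627 genes tested in each clone, 442 were lower in all 3. IPW, a noncoding RNA of the Prader-Willi region, was higher in 9-1 (0.31) and 9-D (0.24).

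Of 20 IGF axis, Notch and growth genes listed as acting with imprinted products, 18 were tested in each line. In 9-1, 6 were higher and 4 lower (55.6%, beside 26.6% of all genes), in 9-D 2 higher and 3 lower (27.8%, beside 23.8%), and in 1-10 4 were lower (22.2%, beside 12.7%) and 0 higher by edgeR or DESeq2, with 1 higher at an unadjusted p under 0.05. IGFBP2, an IGF binding protein, was lower in 9-1 (-0.45), 9-D (-0.28) and 1-10 (-0.32), and so was the receptor NOTCH1 (-0.24, -0.29 and -0.42). IGFBP5 averaged 4.29 ± 0.749 CPM in 1-10 and 18.1 ± 5.19 CPM in H1 WT (-2.08, SE 0.19, adjusted p = 4.03e-08). In H9 it averaged 7.8 ± 0.991 CPM in 9-1, 8.91 ± 2.41 CPM in 9-D and 7.79 ± 1.11 CPM in WT, with no call. The effects on IGFBP5 in H9 and H1 differed by 2.17 (adjusted p = 6.8e-05). The receptor IGF1R was not called, at 0.08 in 9-1, 0.04 in 9-D and 0.06 in 1-10.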

How the data were processed

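Polyadenylated RNA had been isolated with TRIzol and made into libraries with the NEBNext Ultra II kit, per the labels' protocols. The submitters' processing notes name the aligner STAR, the build hg19, the counter featureCounts and DESeq2, and their versions are not given in the sources used here. The authors deposited whole read counts per gene symbol for 18 libraries, with totals of 9663550 to 21007799. The authors' deposited comparison tables hold log2 fold changes of knockout over wild type and adjusted p-values from DESeq2. Reads were not marked by molecule, so intervals and limits from counts cover counting error only.

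From the counts, genes were filtered with filterByExpr (minimum count of 10), scaled by TMM and tested by the robust quasi-likelihood method of edgeR 4.0.16 under R 4.3.3 (Benjamini-Hochberg threshold 0.05). H1 was fitted with 2 groups, H9 with 3, and the difference between the lines and between their knockout effects with 5 groups over 15 libraries. An SE was obtained from each log2 fold change and the root of its F statistic. The script was tested on simulated data with planted changes larger than most of those reported here, which does not cover calls of small differences. The single H1 libraries were scaled apart and described with a pseudocount of 0.5 CPM and a 2-fold limit, without a test. Between replicates, chi-square per gene was 1.8 to 5.61 over 15 pairs, above counting noise, and no pair was merged. Alternatives were DESeq2 (version 1.42.0), RLE scaling, no filter, a filter at 1 CPM, the replicate number as a block, other sets of groups and leaving out each library.

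Members, lists, tests and naming rule were chosen with earlier results of these data known. Named with full values were members called with an absolute log2 difference of at least 1 in a clone, called the same way in all 3 clones, or called between the wild types with at least 2. Other genes were named when called in all 3 clones or called with at least 1. Beyond that rule, further members were given values by locus, and neighbours and list genes such as BEGAIN, WDR25, COL1A2, ZFP57, TRIM28, ZNF445, IPW and IGF1R were chosen after their values were seen. Of 27130 symbols, 25647 matched the RefSeq annotation of GRCh38.p14, used for neighbours and promoter windows, among them 37 of the 38 members. Count columns whose names carry the line and a number, without a clone, were read as wild type.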

Additional observations from a re-analysis of the deposited data

Results flagged for a closer look

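PEG10 was the member whose knockout effect differed between the lines by a test of the difference itself. It was 1 of 29 members tested (3.45%), beside 9.3% of all genes. The effect in H9, averaged over clones 9-1 and 9-D, minus the effect in H1 clone 1-10 was 0.27 on the log2 scale (SE 0.07, adjusted p = 0.00657). PEG10 stood at 0.22 in 9-1 and 0.12 in 9-D, where all 6 libraries lay above the 3 of H9 WT, and at -0.10 in 1-10, where all 3 libraries lay below the 3 of H1 WT. The difference was kept under 20 of 20 alternatives, between 0.25 and 0.29 with adjusted p up to 0.0295. Its neighbour SGCE did not pass the same test (-0.10, adjusted p = 0.702). In the single H1 libraries PEG10 had 224 CPM in clone 1-10 and 213 CPM in WT. The lower PEG10 values of 1-10, a difference that was not called, were thus not seen in that set, which has no replicate.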

How the results depend on the processing

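In the comparisons of clones and lines, no member value called in the main or the alternative run changed sign between them. Values called in neither run were not checked for a change of sign. Calls were lost or gained for 9 of 336 values in 1-10, 23 of 364 in 9-1, 9 of 364 in 9-D, 0 of 364 between the H9 clones, 15 of 347 between the wild types and 5 of 580 for the difference of effects. DESeq2 called 5 imprinted genes in 9-1 instead of 8. For the difference of effects 2 were called instead of 1, with GRB10 added, under DESeq2, a filter at 1 CPM and the replicate block. At 5 CPM or more, 35 genes (clone 1-5) and 26 genes (clone 1-10) of the single libraries passed 2-fold, instead of 134 and 130. RLE scaling moved the median of all genes by at most 0.016 against TMM.

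Leaving out each library in turn gave 3264 to 3566 genes and 4 to 7 imprinted genes in 9-1, 2878 to 3409 and 6 to 9 in 9-D, 24 to 65 and 0 between the H9 clones, 1008 to 2129 and 1 to 4 in 1-10, 7442 to 7802 and 18 to 19 between the wild types, and 1137 to 1522 and 1 to 3 for the difference of effects. The lowest counts of genes in 1-10, 1008 and 1089 against 1885, came without H1 WT replicate 3 and without 1-10 replicate 1.

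Correlations of same-numbered deviations were low, from 0.0159 to 0.115 in H1, all above 0, and from -0.0551 to 0.0887 in H9. Between different numbers they ran from -0.083 to 0.0442 in H1, so whether the H1 libraries were paired by number is not known. With the replicate number as a block, 2925 genes and 5 imprinted genes were called in 1-10, instead of 1885 and 3. PEG10 lower and INPP5F higher were added, while the counts of imprinted genes in 9-1 stayed at 8. Depth limits the 9 untested members most, since 3 counts are 0.143 to 0.310 CPM.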
